A study of Danio rerio with 4 samples.

Results

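The terminal complement genes encode the proteins of the membrane attack complex, and they were read here in RNA from whole zebrafish embryos given a control morpholino or a morpholino against srsf5a. Members were chosen by symbol, ignoring case, from a list of 9 names, and 8 identifiers of the 32379 in the count tables carried one of them. These were c5, c6.2, c7a, c7b, c8a, c8b, c8g and c9. The plain name c6 matched no identifier of its own, and the RefSeq gene table of the GRCz12tu assembly gives c6 as a synonym of c6.2. That table also lists a gene c6.1, which was not analysed here. All 8 genes passed the filter on low counts and were tested.

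All embryos were of the AB strain, received 3 ng of morpholino as 1-cell eggs, were sorted with a rhodamine dextran tracer and were collected at 48 hours post fertilization. A morpholino is a stable antisense oligomer that binds an RNA and blocks its splicing or its translation. The gene srsf5a encodes a splicing factor of the SR (serine/arginine-rich) family, and embryos given its morpholino are called srsf5a morphants here. There were 2 libraries a group, and 80 embryos were lysed per condition. The labels call the libraries biological replicates without saying whether each had its own pool of embryos, so the p-values cover spread that may be technical. The series title concerns unintended RNA targets of morpholinos, and the comparison here is between embryos given either one. Gene counts summed to 15139525 and 36240893 in the control libraries and to 22739821 and 23950082 in the srsf5a-morpholino libraries. The targeted gene itself stood at 335 and 286 CPM (counts per 1000000 gene counts, with TMM-scaled totals) in the controls and at 335 and 368 CPM with its morpholino, a level that does not check the labels, since a block of splicing need not lower a gene's total count.

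Complement is a cascade of plasma proteins that marks and attacks cells. In its last steps, C5 is cut, the larger piece C5b binds C6 and then C7, the complex enters a membrane, C8 joins it, and many copies of C9 assemble into a pore. C8 has an alpha, a beta and a gamma subunit, here c8a, c8b and c8g. C6, C7, C8 alpha, C8 beta and C9 share the membrane attack complex/perforin fold, whereas C8 gamma is a lipocalin and C5 is a relative of C3 and C4. In adult vertebrates the liver is the main source of most of these proteins.

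The gene of the pore-forming component, c9, was 3.25-fold lower in srsf5a morphants. Genes of the assembly steps before it were higher, c7b by 4.82-fold and c6.2 by 2.54-fold. The other 5 genes did not pass the test, with log2 fold changes from -0.25 for c8g to 0.55 for c7a. Calls were made at a Benjamini-Hochberg adjusted p of 0.05 over 19917 genes in edgeR's quasi-likelihood test. At that threshold 3 of 8 terminal complement genes changed, beside 1.98% of all genes tested. Of these, 2 of 8 were higher, beside 1.22% of all genes, and 1 of 8 was lower, beside 0.768%. The number called higher was 0 with control replicate 2 left out, 1 with control replicate 1 left out and 5 with srsf5a-morpholino replicate 2 left out, while c9 stayed called lower in each. The median log2 fold change was 0.46 over the 8 genes and 3e-04 over all genes tested.

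**Figure D1:**
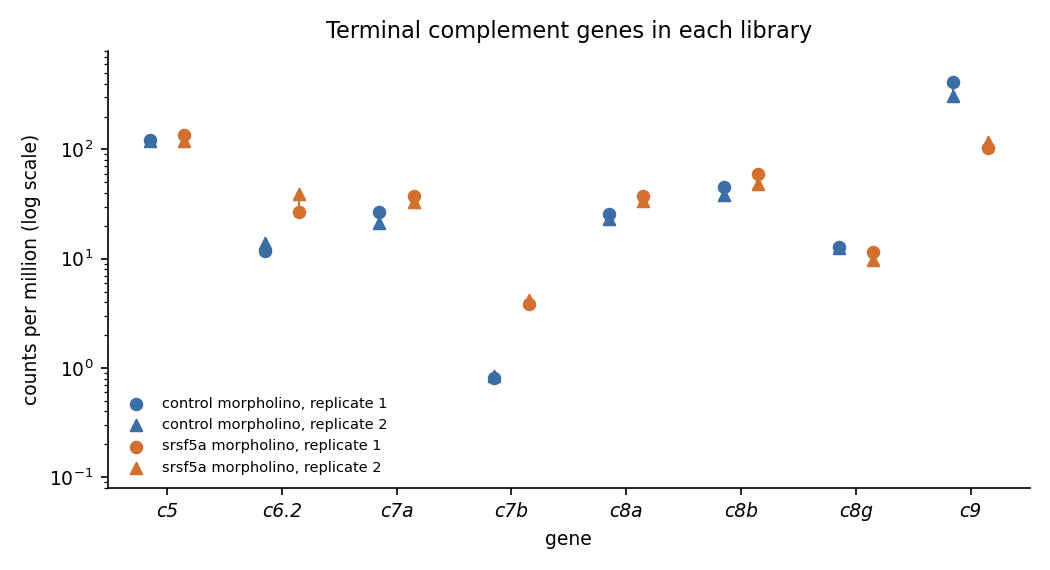
Level of each terminal complement gene in every library, in CPM on a log axis; circles are replicate 1, triangles replicate 2, blue the control morpholino and orange the srsf5a morpholino. c9 lies lower in both srsf5a-morpholino libraries (103 and 117 CPM) than in both controls (410 and 307 CPM), and c7b and c6.2 lie higher.

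c9 (ENSDARG00000016319) encodes the protein that polymerises into the pore. It had 410 and 307 CPM in control replicates 1 and 2 and 103 and 117 CPM in srsf5a-morpholino replicates 1 and 2. The groups did not overlap, and the controls lay further apart from each other than the srsf5a-morpholino libraries did. The means were 358 ± 72.9 CPM and 110 ± 9.75 CPM (SD, n = 2 each), with a log2 fold change of -1.70 ± 0.15 (SE, 95% interval -2.06 to -1.34) and an adjusted p of 0.0136 in edgeR. Among the 153 genes called lower, c9 had the largest decrease (rank 1 by log2 fold change). The call held when any 1 library was left out, with log2 fold changes between -1.90 and -1.48. In a bulk sample, fewer cells making a transcript and less of it per cell cannot be told apart. The smallest change was that of the fit without control replicate 1, the library with the highest c9 level.

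c5 (ENSDARG00000021004) stands at the start of the terminal steps, as the source of both C5b and the inflammatory peptide C5a. It had 122 and 120 CPM in the control libraries, compared with 135 and 120 CPM in morphants. The ranges overlapped, and the log2 fold change of 0.08 ± 0.10 (SE, adjusted p = 0.695 in edgeR) had a 95% interval of -0.15 to 0.31. That interval does not reach the size of the change in c9, c7b or c6.2.

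c6.2 (ENSDARG00000057113) encodes a C6 protein, which binds C5b to begin assembly. Its levels were 11.7 and 14.0 CPM in controls, while srsf5a morphants had 26.6 and 39.2 CPM. Both srsf5a-morpholino libraries lay above both controls, with replicate 2 above replicate 1. The log2 fold change was 1.34 ± 0.20 (SE, 95% interval 0.87 to 1.82, adjusted p = 0.0315 in edgeR). Its call ended without control replicate 1 (1.23, adjusted p = 0.0518 in edgeR) and without control replicate 2 (1.49, adjusted p = 0.0863 in edgeR).

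Zebrafish have a pair of C7 genes, and their values differed. C7 is the component that lets the growing complex attach to a membrane. c7b (ENSDARG00000057121) was the least read of the 8 genes in every library, with 12 and 31 reads in the controls and 89 and 98 reads with the srsf5a morpholino. These are 0.802 and 0.845 CPM against 3.86 and 4.16 CPM. Exact Poisson 95% intervals, which cover counting error only, ended at 1.4 and 1.2 CPM in the controls and began at 3.10 and 3.38 CPM with the srsf5a morpholino. The log2 fold change was 2.27 ± 0.26 (SE, 95% interval 1.65 to 2.89, adjusted p = 0.0189 in edgeR). Without control replicate 2 the log2 fold change hardly moved (2.31). The c7b call ended there, in a fit where calls over all genes tested also became fewer.

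c7a (ENSDARG00000042172) had 26.9 and 21.4 CPM in control embryos against 37.3 and 33.2 CPM in srsf5a morphants. Its groups did not overlap, but the log2 fold change of 0.55 ± 0.14 (SE, 95% interval 0.22 to 0.89) did not pass (adjusted p = 0.0912 in edgeR). With a term for replicate number added to the fit, c7a passed (0.55, adjusted p = 0.0185 in edgeR). That fit called 865 genes higher in all, against 242 without the term. Without srsf5a-morpholino replicate 2 the log2 fold change of c7a was 0.63. c7a passed in that fit, where calls over all genes tested also became more numerous. The number of c7b reads per c7a read was 0.0298 and 0.0394 in the control libraries, compared with 0.104 and 0.125 in morphants. This ratio was thus 3.32-fold higher with the srsf5a morpholino, with no overlap between groups. An exact two-sided permutation test of 2 libraries against 2 cannot give a p under 0.333, which is the value this ratio gave.

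The 3 genes of C8 did not pass the test. c8a (ENSDARG00000039516), for the alpha subunit, which enters the membrane, had 25.8 and 23.2 CPM in controls, while srsf5a morphants had 37.2 and 34.0 CPM (log2 fold change 0.54 ± 0.11 SE, adjusted p = 0.0632 in edgeR). c8b (ENSDARG00000039517), for the beta subunit, which docks C8 on the complex, had 45.6 and 38.1 CPM against 59.5 and 48.5 CPM (0.37 ± 0.14 SE, adjusted p = 0.196 in edgeR). In both genes the srsf5a-morpholino libraries lay above both controls. With the term for replicate number, c8a passed (0.54, adjusted p = 0.0181 in edgeR) and c8b did not (0.37, adjusted p = 0.0523 in edgeR). Without srsf5a-morpholino replicate 2, c8a lay at 0.60 and c8b at 0.51. Both passed in that fit, where calls over all genes tested also became more numerous.

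c8g (ENSDARG00000032098), for the gamma subunit, had 12.8 and 12.5 CPM in control embryos against 11.5 and 9.73 CPM in srsf5a morphants (-0.25 ± 0.14 SE, 95% interval -0.59 to 0.08, adjusted p = 0.374 in edgeR). Its libraries lay slightly below both controls, unlike those of the other subunit genes. The number of c8b reads per c8a read was 1.77 and 1.64 in the control libraries, compared with 1.6 and 1.43 in morphants, a small difference of 1.13-fold. The number of c8g reads per c8a read was 0.496 and 0.540 in controls, while srsf5a morphants had 0.310 and 0.286, 1.74-fold lower. Both ratios gave the smallest p the exact permutation test allows (0.333). For c8g to c8a that was fixed beforehand, since c8g lay lower and c8a higher without overlap.

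In 7 of the 8 genes the groups did not overlap, beside 52.4% of all genes tested. In 5 the srsf5a-morpholino libraries were the higher, beside 26.1% of all genes, and in 2 they were the lower, beside 26.3%. The unadjusted p was under 0.05 for 5 of the genes with a higher level, beside 10.5% of all genes tested, and for 1 with a lower level, beside 10.1%.

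**Figure D2:**
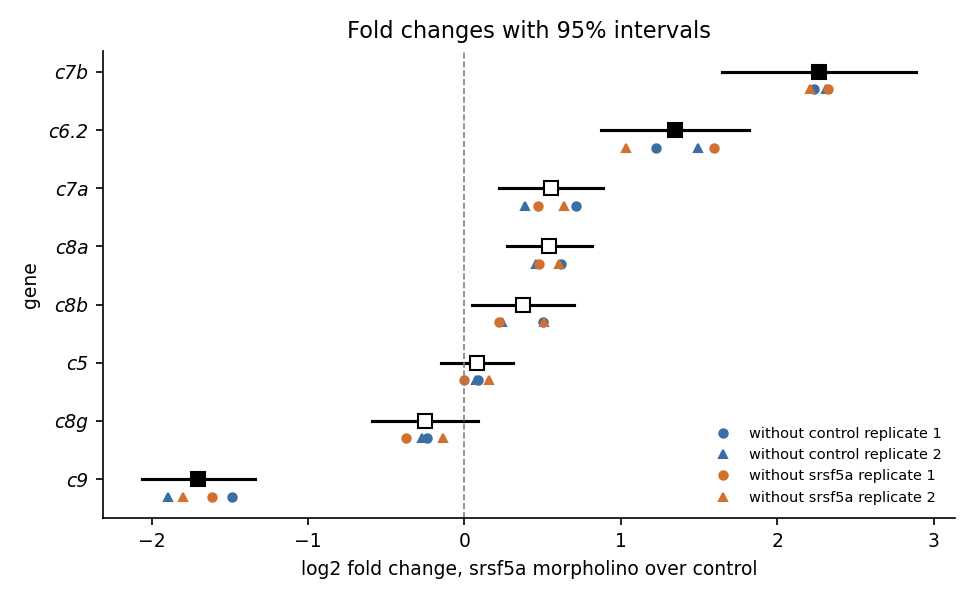
Log2 fold change of each terminal complement gene, srsf5a morpholino over control, as a square with its 95% interval; filled squares passed an adjusted p of 0.05, and the small coloured marks give the value when 1 library was left out. c9 lies between -1.90 and -1.48 and c7b between 2.21 and 2.32 in those fits, while c5 lies between -0.0024 and 0.159.

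The makeup of the terminal complement reads differed between the groups. Of the reads assigned to the 8 genes, c9 took 62.6% (95% Wilson interval 61.6% to 63.5%) and 57.1% (56.4% to 57.8%) in the controls. With the srsf5a morpholino it took 24.9% (24% to 25.8%) and 28.8% (27.9% to 29.7%). These intervals cover counting error only, and shares of different genes also depend on transcript length, so they are compared here only between libraries. c5 took 18.6% and 22.4% in control embryos against 32.7% and 29.7% in srsf5a morphants, although its own CPM overlapped between the groups. c6.2 took 1.78% and 2.61% in controls and 6.42% and 9.65% in morphants.

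Summed over the 8 genes, the level was 655 and 537 CPM in the control libraries, compared with 414 and 406 CPM in morphants. Without c9 the sums ran the other way, at 245 and 230 CPM against 311 and 289 CPM. The number of c9 reads per c8a read was 15.9 and 13.2 for controls and 2.77 and 3.44 for morphants. That was a 4.69-fold difference with no overlap (exact permutation p = 0.333, the smallest possible). Since c9 lay lower and c8a higher without overlap, this ratio could not overlap and is not a separate result. The number of c8a reads per c7a read was 0.960 and 1.08 in controls, while srsf5a morphants had 0.998 and 1.02, and the groups overlapped.

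**Figure D3:**
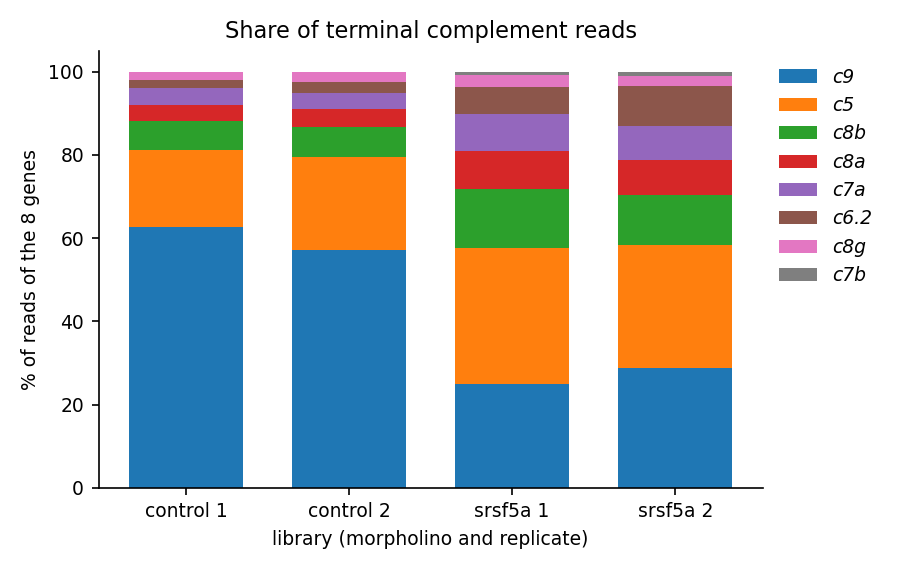
Share of the reads of the 8 terminal complement genes taken by each gene, in percent, in each of the 4 libraries. The c9 share is 62.6% and 57.1% in control embryos against 24.9% and 28.8% in srsf5a morphants.

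Some of these genes lie beside each other. In the RefSeq table of GRCz12tu, which is not the build of the counts, c7b and c6.2 are neighbours whose spans overlap, and c8a and c8b are neighbours. c6.2 lies beside rgs7bpb, and c7a beside rgs7bpa, the paralog of rgs7bpb. The strand setting of the counting is not given in the sources used here, so reads where c7b and c6.2 overlap, if they also overlap in the annotation used, may have been set aside or given to either gene. Their separate values are uncertain to that extent. The number of c7b reads per c6.2 read was 0.0686 and 0.0603 in the control libraries, compared with 0.145 and 0.106 in morphants, with no overlap between the groups (exact permutation p = 0.333, the smallest possible).

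The authors' deposited table of the same comparison gave the same signs for all 8 genes. In the authors' deposited table the log2 value of c9 was -1.52 (adjusted p = 6.64e-25), that of c7b 1.08 (adjusted p = 1.17e-04) and that of c6.2 1.07 (adjusted p = 4.61e-07). c8a (0.47, adjusted p = 0.0224) and c7a (0.47, adjusted p = 0.0386) also passed 0.05 in the authors' deposited table, beside 3.14% of its genes with a positive change and 2.99% with a negative one. In DESeq2 run here on the counts, the same 4 genes were higher and c9 lower, beside 2.84% of genes higher and 2.65% lower (5.49% in all). There c8a had an adjusted p of 0.0273 and c7a one of 0.0424. Log2 values in the authors' deposited table were smaller in size, as for c7b (1.08 ± 0.22 SE, against 2.27 ± 0.48 SE in DESeq2 run here). The reason was not tested, so the sizes are not compared.

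Genes acting before C5 did not show a common direction. Of 26 identifiers for early complement genes, which serve recognition and the C3 and C5 convertases, 21 were tested. None passed in edgeR, 7 had an unadjusted p under 0.05 (33.3% beside 20.6% of all genes), and 1 passed in DESeq2, beside 5.49% of all genes. That gene was MASP1, for a lectin pathway protease, lower by that test and named after its values were seen. In all 10 lay above 0 and 11 below, with a median log2 fold change of -0.02. c3a.1, a gene for the central component C3, had 1075 and 871 CPM in controls, while srsf5a morphants had 1166 and 935 CPM. cfb, for the protease part of the alternative pathway convertase, had 141 and 95.2 CPM against 183 and 104 CPM. Both overlapped between groups. Other C3 genes moved in either direction, and c3a.4 and c3a.3 were named after their values were seen. c3a.4 had 5 and 5 reads in controls and 39 and 27 in morphants. Its log2 fold change, 2.77 ± 0.54 (SE), was the largest of this list and above that of c7b. It did not pass (adjusted p = 0.0524 in edgeR). c3a.3 was lower, at 100.5 and 60.5 CPM against 55.3 and 24.6 CPM (adjusted p = 0.195 in edgeR). Neither of these genes overlapped between groups. In the whole list 5 of 21 lay higher without overlap and 5 lower, beside 26.1% and 26.3% of all genes. cfb passed without srsf5a-morpholino replicate 2 (0.63, adjusted p = 0.0413 in edgeR) and lay at -0.18 without replicate 1.

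Of 12 identifiers for complement regulators and receptors, 11 were tested and none passed in edgeR. An unadjusted p under 0.05 was found for 3, or 27.3% beside 20.6% of all genes. All 3 were higher, beside 10.5% of all genes. In DESeq2 2 passed, both higher, beside 2.84% of genes higher and 5.49% in all. The groups did not overlap for 5 that were higher, beside 26.1% of all genes, and for 1 that was lower, beside 26.3%. The median log2 fold change was 0.12. VTN (ENSDARG00000053831), for vitronectin, which binds forming attack complexes and keeps them off membranes, had 74.4 and 78.1 CPM in control embryos against 84.1 and 94.2 CPM in srsf5a morphants (adjusted p = 0.263 in edgeR). The second VTN identifier, ENSDARG00000055388, lay the other way, with 43.3 and 34.5 CPM against 34.4 and 28.7 CPM (-0.30 ± 0.15 SE, adjusted p = 0.311 in edgeR), and was named after its values were seen. CPN1, for a carboxypeptidase that trims complement peptides, had 67.7 and 63.6 CPM against 81.4 and 76.1 CPM (adjusted p = 0.187 in edgeR). CLU, for clusterin, another inhibitor of the attack complex, was named after its values were seen. It had 13.2 and 14.3 CPM against 32.6 and 22.0 CPM, a log2 fold change of 0.98 ± 0.19 (SE) that did not pass in edgeR (adjusted p = 0.0524) and was among the 2 that passed in DESeq2 (adjusted p = 6.12e-04).

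Perforin genes, which encode lymphocyte relatives of C9, were barely read. Of 6 identifiers only prf1.5 was tested, at 1.47 and 1.31 CPM in the control libraries, compared with 1.65 and 1.1 CPM in morphants. None passed in edgeR or DESeq2, and 0 had an unadjusted p under 0.05. Of 5 acute phase identifiers only CP, for ceruloplasmin, was tested. CP did not pass in edgeR (203 and 140 CPM against 297 and 178 CPM, adjusted p = 0.356) or DESeq2, and 0 had an unadjusted p under 0.05. Without srsf5a-morpholino replicate 2 CP passed in edgeR (0.79, adjusted p = 0.0105).

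Liver plasma protein genes were examined beside the complement genes. Of 39 identifiers 34 were tested, and 2 were called higher and 3 lower, beside 1.22% and 0.768% of all genes. An unadjusted p under 0.05 was found for 10 (29.4% beside 20.6% of all genes), and 6 passed in DESeq2, beside 5.49% of all genes. rbp4l (0.75) and apom (0.70), which encode carriers of retinol and of lipids, were higher. The transferrin gene tfa (-1.04), the apolipoprotein gene apobb.2 (-0.83) and the protease inhibitor gene a2ml (-0.53) were lower. With 1 library left out, log2 fold changes ran from 0.62 to 0.87 for rbp4l and from 0.58 to 0.82 for apom. They ran from -1.22 to -0.84 for tfa, from -1.07 to -0.62 for apobb.2 and from -0.59 to -0.47 for a2ml. Without control replicate 1 the call of tfa held (-1.22), and those of rbp4l, apom, apobb.2 and a2ml ended. Without control replicate 2 the call of tfa ended as well (-0.84), as did those of the others. In both fits calls over all genes tested also became fewer. The most abundant genes of the list did not pass: apobb.1 had 7010 and 7920 CPM against 8288 and 9572 CPM (0.26), and apoa1a had 3086 and 2612 CPM against 2754 and 2926 CPM (-0.0043, with overlap). The median was 0.14, and the summed level was 16250 and 16690 CPM in controls, while srsf5a morphants had 16780 and 18540 CPM. Among the defining markers of liver cells, tfa, one of the genes called lower, had 988 and 1276 CPM in controls against 492 and 611 CPM in srsf5a morphants. The fibrinogen gene FGB had 192 and 189 CPM against 229 and 191 CPM. fabp10a had at most 1.21 CPM in any library and TTR at most 0.134 CPM.

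The c9 level was also set against these genes. There were 25.2 and 18.4 c9 reads per 1000 liver plasma protein reads in control embryos against 6.14 and 6.30 in srsf5a morphants, on CPM summed over the list. Of that sum, 16250 CPM in control replicate 1, apobb.1 made up 7010 CPM and apoa1a 3086 CPM. A few abundant genes thus weigh heavily in this ratio, which does not measure the amount of liver. The number of c9 reads per FGB read was 2.13 and 1.63 in the control libraries, compared with 0.449 and 0.613 in morphants. Relative to tfa, which was itself lower, it was 0.415 and 0.240 against 0.210 and 0.191. None of these 3 ratios overlapped between the groups. All 3 have c9 as numerator, and c9 itself did not overlap, so they are not separate results.

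Leukocyte markers were read as well. Of 26 identifiers 23 were tested. CEBPB (0.83 ± 0.15 SE), a transcription factor gene also active in liver, was the only call in edgeR. That call ended without control replicate 2 (0.68), where calls over all genes tested also became fewer. An unadjusted p under 0.05 was found for 9 of the 23, beside 20.6% of all genes. Of these 7 were higher, beside 10.5% of all genes, and 2 lower, beside 10.1%. In DESeq2 4 passed, all higher, beside 2.84% of genes higher and 5.49% in all. In all 13 lay above 0 and 10 below, with a median of 0.24. The groups did not overlap for 7 that were higher, beside 26.1% of all genes, and for 5 that were lower, beside 26.3%. CEBPA, the other of the most abundant pair with lyz, had 35.7 and 35.1 CPM against 34.8 and 33.8 CPM. The summed level of the list was 215 and 196 CPM in controls, while srsf5a morphants had 264 and 255 CPM. Of the defining markers, the lysozyme gene lyz had 50.4 and 44.2 CPM against 64.8 and 75.5 CPM (adjusted p = 0.0598 in edgeR). lyz passed in DESeq2 (adjusted p = 0.00621) and, in edgeR, when either srsf5a-morpholino library was left out (0.68 and 0.46). LCP1 had 1.94 and 3.46 CPM against 1.17 and 3.48 CPM, and mpx matched no identifier. MPEG1, which encodes a perforin-like protein of macrophages and so a relative of C9, had 3 identifiers. ENSDARG00000043093 had 2.54 and 2.15 CPM against 11.4 and 5.39 CPM (1.86 ± 0.37 SE, adjusted p = 0.0526 in edgeR), and passed in DESeq2 (adjusted p = 2.58e-04). ENSDARG00000055290 lay the other way, with 7.08 and 6.46 CPM against 4.77 and 4.97 CPM (-0.47 ± 0.17 SE, adjusted p = 0.19 in edgeR) and no overlap between the groups. ENSDARG00000078569 was too low to be tested, at 0.130 CPM or less in every library. tfa, FGB, fabp10a, TTR, lyz, LCP1 and MPEG1 are named as defining markers of their cell types. No leukocyte marker and no liver plasma protein gene was at 0 in all 4 libraries. The share of these cells in the changes of c6.2 and c7b was not tested.

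**Figure D4:**
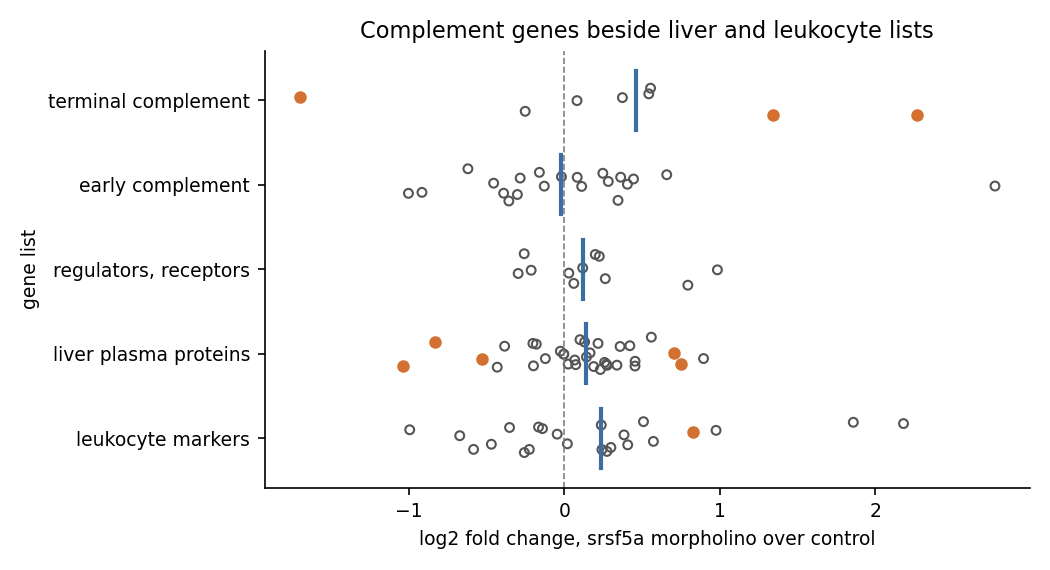
Log2 fold change, srsf5a morpholino over control, of every tested gene in 5 lists; filled orange points passed an adjusted p of 0.05 in edgeR, open points did not, and blue bars are list medians. Terminal complement has a median of 0.46 with c9 at -1.70, while the early complement list has a median of -0.02 and no call.

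Genes whose 4 values moved most like those of the 3 called members were sought among 13474 others with a mean of at least 5 CPM. The measure was the Euclidean distance between centred log2 CPM values over the 4 libraries, so it rests on few points. Nearest to c9 were LDLRAD4 (distance 0.44), PMEPA1 (0.54) and RORB (0.54). Nearest to c7b were cdkn1a (0.18), SOCS3 (0.27, ENSDARG00000025428) and FN1 (0.29). Nearest to c6.2 were LIN28A (0.13), bckdhbl (0.25) and an unnamed gene, ENSDARG00000075953 (0.26). No early complement gene and no liver plasma protein gene was among these 9. Those lists had only 21 and 34 genes tested, beside the 13474 compared, so nothing is drawn from their absence.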

How the data were processed

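The submitters' processing notes name the Zv9 genome build and the tools Picard, TopHat, HTSeq and DESeq2. Tool versions, the annotation release and the strandedness of counting are not given in these sources. The authors deposited unnormalized, whole-number read counts per Ensembl gene. The authors' deposited table of their comparison gives a signal (the mean normalized count), log2 changes with their errors, a Wald score, and p-values raw and adjusted. Its header does not name the direction, but 99.1% of 19917 genes had the sign of srsf5a morpholino over control.

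Summary totals (ambiguous reads, reads in no gene, and reads with several alignments, 29.0% to 34.2%) were kept out. Gene counts went into edgeR 4.0.16 (R 4.3.3) with TMM scaling and filterByExpr (count 10, total 15), and the quasi-likelihood test had only the group as a term. Standard errors are the absolute log2 fold change over the root of the F statistic. CPM use TMM-scaled totals. On unscaled totals 3 counts, the limit that a count of 0 allows, were 0.0828 to 0.198 CPM. DESeq2 1.42.0 was an alternative, as were other scalings, filters, a replicate block and leaving out each library. In a chi-square test of counts, replicates of both groups differed beyond sampling noise (9.16 and 14.2 per degree of freedom). On simulated counts for this comparison (19658 genes tested), 75.0% of 100 genes changed by 1 log2 unit and 97.0% of 100 changed by 2 were recovered. Of the 182 calls, 10 were of unchanged genes. The simulated libraries were independent, with a spread set by expression level alone, and the changed genes were above a minimum mean count. Recovery in the real libraries may therefore differ.

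Symbols came from a supplied gene name table. Genes are named by a rule: every terminal complement gene, srsf5a, in other lists the called genes and the 2 most abundant, and the 3 genes nearest each called member. Defining liver and leukocyte markers are also given, and MASP1, CLU and the second VTN gene were named after their values were seen. The genes and lists were chosen with earlier results of these data known.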

Additional observations from a re-analysis of the deposited data

How the results depend on the processing

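Over 10 alternatives, the 8 terminal complement genes kept direction and call in 69 of 80 values, lost a call in 3 and gained one in 7. c9 was called lower, and alone among the members, in every alternative. The number called higher was 2, with 4 in DESeq2 and 4 with the replicate block, where c7a and c8a joined in both. It varied when a library was left out, and so did the number over all genes tested. The cause was not tested.

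All genes called higher numbered 494 in DESeq2, 865 with the replicate block and 31 to 702 without 1 library, against 242. Those called lower numbered 462, 717 and 2 to 708, against 153. With a 1 CPM filter, DESeq2, the block and 1 library left out, the early complement list had 1, 1, 3 and 0 to 4 calls, regulators and receptors 1, 2, 2 and 0 to 2, and leukocyte markers 3, 4, 5 and 0 to 4. Acute phase genes had 1 with the block and 0 to 1, and liver plasma proteins 0 to 9, without 1 library.

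With the 1 CPM filter, all genes called numbered 313 higher and 220 lower of 18192 tested, against 242 and 153 of 19917. Calls over all genes thus rose with that filter, in DESeq2 and with the replicate block as well. Whether calls in any list rose more than calls over all genes was not tested. Signs changed for some genes that did not pass. Without 1 library, log2 fold changes ran from -0.0024 to 0.159 for c5, from -0.0546 to 0.267 for c3a.1, from -0.178 to 0.632 for cfb, from -0.313 to 0.256 for prf1.5 and from -0.121 to 0.117 for apoa1a. prf1.5 also became 0.0054 with upper-quartile factors and 0.0020 with the 1 CPM filter, and apoa1a 0.0020 with upper-quartile factors.

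Libraries with the same number deviated together (Pearson correlation 0.476 across 19917 genes, which are not independent). The labels do not say what a number marks, so the source of this shared deviation is not known. The main test had no term for it. Depth limits c7b most, with 12 reads in control replicate 1.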
